A study of Mus musculus with 7 samples.

Results

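The genes described here encode the machinery that brings proteins into mitochondria. They were chosen by name: the translocases of the outer membrane (names beginning with *Tomm* and a digit) and of the inner membrane (*Timm* and a digit, and *Timmdc1*), the metaxins, the GrpE-like factors, the subunits of the mitochondrial processing peptidase, and *Samm50*, *Pam16*, *Dnajc15*, *Dnajc19*, *Pitrm1*, *Mipep*, *Chchd4* and *Gfer*. The rule found 41 genes among the 22877 rows of the table. Of these, 40 are protein-coding in GENCODE M21, and the remaining one, *Tomm6os*, is an antisense gene that lies opposite *Tomm6* and codes for no import protein.

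RNA was sequenced from oocytes enclosed in secondary follicles of 8-week-old mice on the strain C57BL/6J, with 5 oocytes pooled in each library. The 3 *Mfn1*-/- libraries come from *Mfn1* fl/fl mice that also carry *Zp3-Cre*, in which Cre is driven by the *Zp3* promoter, a promoter that becomes active in growing oocytes. The 4 WT libraries come from wild-type littermates, and the sources used here do not say whether these carried a floxed allele. The deposited table gives 1 mean of normalized counts per genotype and gene, so each value below is the authors' mean, with no spread between libraries, no depth and no p-value. A pair of means can differ by more or by less than such libraries vary, and no difference below was tested.

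Most mitochondrial proteins are encoded in the nucleus, made in the cytosol and imported. Precursors are recognized by receptors of the TOM complex and cross the outer membrane through its channel. They then pass to the SAM complex for insertion of outer membrane barrels, to the disulfide relay of the intermembrane space, to TIM22 for carriers of the inner membrane, or to TIM23 and its motor for the matrix, where peptidases remove the targeting sequence. MFN1, the fusion protein deleted in these oocytes, is itself a nuclear-encoded protein of the outer mitochondrial membrane, and growing oocytes carry a very large number of mitochondria.

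The values of several members have to be read beside those of near-identical gene copies elsewhere in the genome, as the sequences of 2 members show. *Tomm20*, the presequence receptor (chromosome 8, 126930667 to 126945844, minus strand, GRCm38), shares 435 transcript bases with *Gm14494*, a processed pseudogene on chromosome 2 (153826171 to 153826605, plus strand), at 99.5% identity with 2 differences. The first 150 coding bases of both are shown with the base that differs in capitals, from the GENCODE M21 transcripts.
*Tomm20*: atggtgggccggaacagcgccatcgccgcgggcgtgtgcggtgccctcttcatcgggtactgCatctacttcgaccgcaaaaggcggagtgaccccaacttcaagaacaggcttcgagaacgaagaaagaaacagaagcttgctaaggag
*Gm14494*: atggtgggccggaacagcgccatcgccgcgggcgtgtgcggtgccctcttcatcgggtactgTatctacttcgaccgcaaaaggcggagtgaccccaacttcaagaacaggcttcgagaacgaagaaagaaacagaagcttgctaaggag
*Dnajc19*, a co-chaperone of the import motor (chromosome 3, 34056020 to 34081321, minus strand), shares 351 bases with the processed pseudogene *Dnajc19-ps* on chromosome 7 (103882654 to 103883004, minus strand), at 99.1% identity. Coding bases 91 to 240 of *Dnajc19* are shown with those of the copy, the 2 differing bases in capitals.
*Dnajc19*: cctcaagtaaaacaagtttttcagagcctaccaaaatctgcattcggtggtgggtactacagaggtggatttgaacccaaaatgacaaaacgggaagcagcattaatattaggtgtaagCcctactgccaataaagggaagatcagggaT
*Dnajc19-ps*: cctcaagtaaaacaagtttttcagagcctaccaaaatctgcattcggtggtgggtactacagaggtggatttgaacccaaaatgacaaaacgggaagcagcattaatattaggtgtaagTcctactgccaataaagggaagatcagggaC
The reads were 75 bases long and sequenced in pairs. Of all stretches of 75 bases in these alignments, 61.8% are the same in *Tomm20* and *Gm14494* and 52.3% in *Dnajc19* and *Dnajc19-ps*. A read from such a stretch, taken alone, fits both places. Its mate can lie on a base that differs or outside the shared bases, so the share of read pairs that fit both is lower. How reads that fit several genes were counted is not given in the sources used here.

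In the table as a whole, *Mfn1* had a mean of 0.0577 in *Mfn1*-/- oocytes and 0.616 in WT, and thus a lower value in the genotype that lacks it. The 14 oocyte markers all had a row, with medians of 137 and 119, while 7 of the 11 granulosa cell markers with a row and all 4 theca cell markers with a row had a mean under 0.1. The summed granulosa cell markers came to 2.32 in *Mfn1*-/- oocytes and 1.67 in WT, most of it from *Inha* (1.87 and 0.954). Of the 11 granulosa cell markers, 3 were higher and 8 lower in *Mfn1*-/- oocytes, and without *Inha* the sums were 0.445 and 0.717, with the higher one in WT. The sum of theca cell markers was 0.194 and 0.191. The part of other cells in the values below was not tested. In pooled oocytes, more RNA of a gene in every oocyte and a larger share of oocytes with that RNA cannot be told apart.

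Log2 fold changes were computed as *Mfn1*-/- over WT after adding 0.1 to both means, so differences of genes with low means come out smaller than their ratio. For the 6226 genes whose mean over the libraries reached 1, called expressed genes from here on, the median log2 fold change was 0.16, so values of import genes are also given relative to this shift. Of the 41 import genes, 34 had the higher mean in *Mfn1*-/- oocytes and 7 in WT, against 56.7% of all genes with a higher mean in *Mfn1*-/-. Among the 29 import genes that are expressed, 25 (86.2%) were higher, against 65.4% of all expressed genes. The median log2 fold change of the 41 genes was 0.27, with a lower quartile of 0.16 and an upper quartile of 0.57. After the shift of 0.16 was subtracted, the median was 0.11 and 31 of the 41 stayed above 0 (75.6%), where the median of expressed genes lies by construction.

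Differences of 2-fold were rare. On the log2 scale with the added 0.1, 2 of the 41 genes (4.88%) were more than 2-fold higher in *Mfn1*-/- oocytes, *Tomm5* and *Chchd4*, against 4.87% of all genes, and none was more than 2-fold lower, against 2.75% of all genes. Among the expressed members the count was 1 of 29 (3.45%), against 5.44% of expressed genes higher and 3.24% lower, so the share past 2-fold was near that of the table. Past 1.5-fold, 7 of the 29 expressed members (24.1%) were higher, against 15.5% of expressed genes, and none was lower, against 7.71%. With the members of lower mean included, 10 of 41 (24.4%) were past 1.5-fold, all higher, against 12.4% of all genes higher and 6.88% lower. They were *Tomm5*, *Chchd4*, *Tomm20*, *Timm29*, *Grpel2*, *Samm50*, *Tomm6os*, *Grpel1*, *Pitrm1* and *Timm22*. With an added 1 in place of 0.1, *Chchd4* (0.56), *Samm50* (0.46), *Pitrm1* (0.38), *Timm22* (0.32) and *Tomm6os* (0.29) fell under 1.5-fold. *Tomm5*, *Tomm20*, *Grpel1*, *Timm29* and *Grpel2* stayed past it. With the shift of expressed genes subtracted, *Pitrm1* (0.50) and *Timm22* (0.46) fell under it. The share of all genes past 1.5-fold was not computed in these settings. The member just outside the 2-fold threshold was *Tomm20* (log2 fold change 0.98), and the one just inside was *Chchd4* (1.10).

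**Figure D1:**
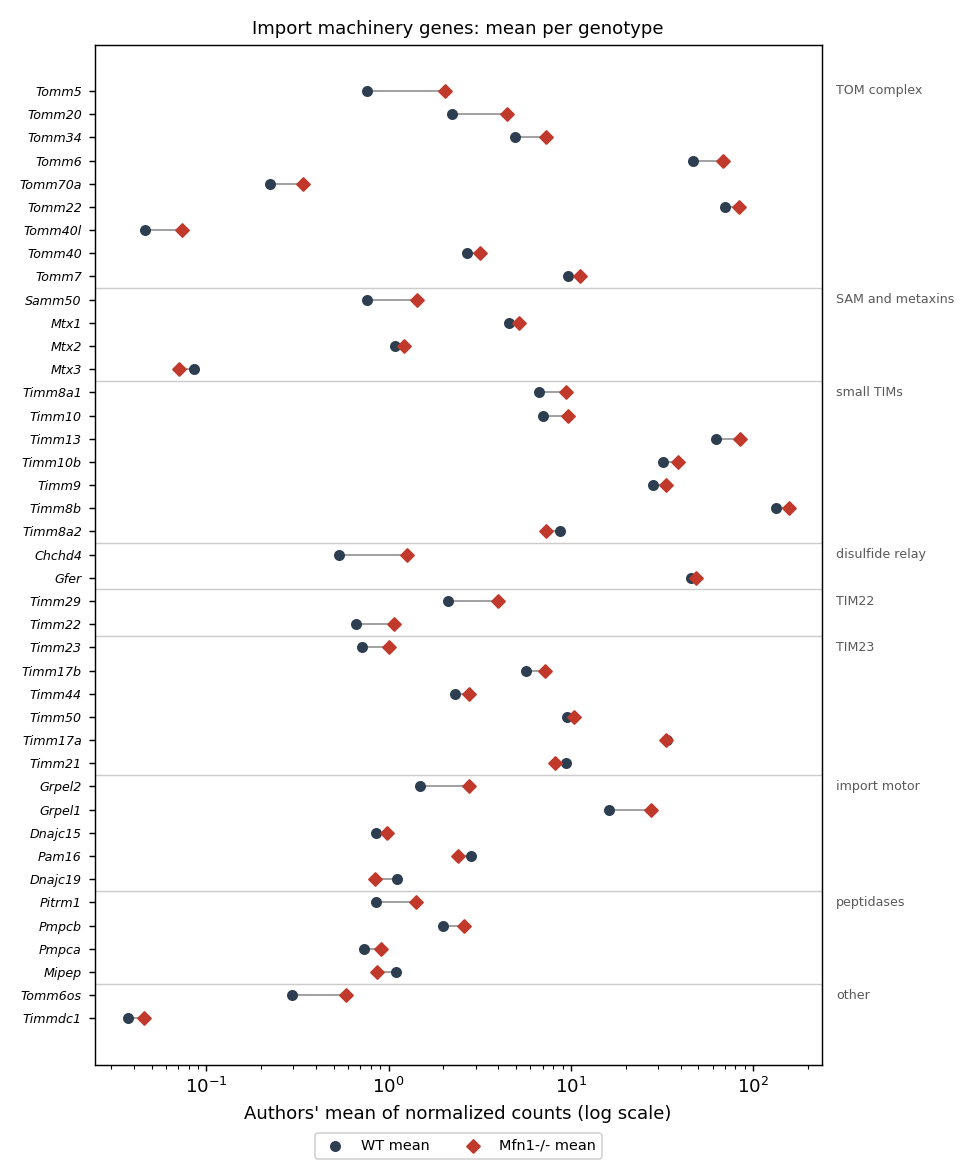
Each line joins the authors' WT mean (dark circle) and *Mfn1*-/- mean (red diamond) of normalized counts for 1 of the 41 import genes, grouped by role, on a log axis. The red diamond lies to the right in 34 genes and to the left in 7, among them *Timm8a2*, *Dnajc19* and *Mipep*.

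In the TOM group, which holds the measured genes of the TOM complex, the relative *Tomm40l* and the cytosolic *Tomm34*, all 9 genes had the higher mean in *Mfn1*-/- oocytes. Their median log2 fold change was 0.45, and 0.36 for the 8 genes without *Tomm34*. *Tomm20l*, a relative of *Tomm20* that the name rule would take, had no row under that name. *Tomm5*, a small subunit that steadies the channel (chromosome 4, 45105208 to 45108114, minus strand), had a mean of 2.03 in *Mfn1*-/- oocytes and 0.762 in WT, a log2 fold change of 1.31 and the largest of the 41. It was exceeded by 2.83% of expressed genes. *Tomm20* had means of 4.47 and 2.22 and a log2 fold change of 0.98, and 5.73% of expressed genes lay above it. The other small subunits differed less. *Tomm6* had means of 68.1 and 46.8 (log2 fold change 0.54) and *Tomm7* had 11.2 and 9.61 (0.22). Small subunits of 1 complex thus spanned log2 fold changes from 0.22 to 1.31.

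The remaining genes of the TOM group differed less than *Tomm5* and *Tomm20*. *Tomm22*, the central receptor that joins the subunits, had means of 84.2 and 69.9, a log2 fold change of 0.27. *Tomm40*, the channel itself, had means of 3.17 and 2.69 (0.23). *Tomm70a*, the receptor for carrier precursors, was listed at 0.34 and 0.223 (0.45), and *Tomm34*, a cytosolic partner of the chaperones that deliver precursors, at 7.35 and 4.91 (0.57). *Tomm40l*, a relative of the channel, had means of 0.0738 and 0.046, among the 3 lowest of the set, and its log2 fold change ran from 0.04 with an added 1 to 0.58 with an added 0.01. With the added 0.1, all 9 genes of the group lay above the shift of expressed genes, the lowest being *Tomm7* at 0.06 over it.

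In the SAM complex, which inserts barrel proteins into the outer membrane, the core subunit stood apart from its partners. *Samm50*, the core (chromosome 15, 84192241 to 84217267, plus strand), had a mean of 1.43 in *Mfn1*-/- oocytes and 0.765 in WT, a log2 fold change of 0.82. Its value depended on the added constant, from 0.46 with 1 to 0.89 with 0.01. The metaxins *Mtx1* (5.17 and 4.6, log2 fold change 0.17) and *Mtx2* (1.22 and 1.08, 0.16) lay on the shift of expressed genes. *Mtx3*, with means of 0.0709 and 0.0857, was lower, at -0.12, and has one of the lowest means of the set.

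The small TIM proteins are chaperones of the intermembrane space that carry hydrophobic precursors between the membranes, in mixed rings of TIMM9 with TIMM10 and of TIMM8 with TIMM13. Of the 7 members, 6 had the higher mean in *Mfn1*-/- oocytes, none of them past 1.5-fold, and the median was 0.27. The partners in a ring did not differ by the same amount. *Timm9* had means of 33.5 and 28.2 (log2 fold change 0.25) and its partner *Timm10* 9.62 and 7 (0.45). *Timm13* had means of 84.8 and 62.5 (0.44), beside 157 and 133 for *Timm8b* (0.24) and 9.46 and 6.65 for the X-linked *Timm8a1* (0.50). *Timm10b*, the ring subunit that binds to TIM22, had means of 38.8 and 32.2 (0.27). *Timm8a2*, a paralog of *Timm8a1*, was the only small TIM gene lower in *Mfn1*-/- oocytes, with means of 7.26 and 8.68 (-0.25).

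The disulfide relay folds small cysteine-rich proteins in the intermembrane space, small TIM proteins among them. *Chchd4*, the oxidoreductase that traps the incoming proteins (chromosome 6, 91462172 to 91473546, minus strand), had a mean of 1.26 in *Mfn1*-/- oocytes and 0.534 in WT, a log2 fold change of 1.10. Relative to the shift of expressed genes it was 0.94, under 2-fold. *Gfer*, the sulfhydryl oxidase that recharges CHCHD4, had means of 48.4 and 45.4 and a log2 fold change of 0.09, below the shift. The 2 members of the relay thus lay on either side of the shift.

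Both import genes placed under TIM22, the inner membrane insertase for carrier proteins, were past 1.5-fold, while *Agk*, a TIM22 subunit that the name rule does not take, was listed at 0.361 and 0.327 (log2 fold change 0.11). *Timm29*, a subunit that links TIM22 to the outer membrane (chromosome 9, 21592722 to 21595970, plus strand), had a mean of 3.97 in *Mfn1*-/- oocytes and 2.13 in WT, a log2 fold change of 0.87. It overlaps *Yipf2* on the opposite strand, which was listed at 2.22 and 2.52, lower in *Mfn1*-/- oocytes. *Timm22*, the channel (chromosome 11, 76406952 to 76416292, plus strand), had means of 1.07 and 0.66 (0.62). Its mean over the libraries was 0.834, under that of expressed genes. Relative to the shift of expressed genes it was 0.46, under 1.5-fold.

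In TIM23, the inner membrane channel for proteins with a targeting sequence, no member of 6 reached 1.5-fold and the median was 0.19. *Timm23*, the channel subunit, had means of 1 and 0.71 (log2 fold change 0.44). *Timm17b* had 7.23 and 5.68 (0.34), while its paralog *Timm17a* had 33.1 and 33.6 (-0.02). *Timm44*, which anchors the motor, had means of 2.77 and 2.31 (0.25), and *Timm50*, the receptor of the complex, 10.4 and 9.47 (0.13). *Timm21*, which links TIM23 to TOM and the respiratory chain, was lower in *Mfn1*-/- oocytes, with means of 8.14 and 9.36 (-0.20). The own rows of this complex thus lay on both sides of the shift, 3 above and 3 below. Summed with the near-identical copies described below, *Timm23* stood at 0.22 and *Timm17a* at 0.19, both above the shift.

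The import motor pulls precursors into the matrix with the chaperone HSPA9, and the own rows of its parts differed in direction. The nucleotide exchange factors of HSPA9 were higher in *Mfn1*-/- oocytes. *Grpel1* (chromosome 5, 36464998 to 36474080, plus strand) had means of 27.7 and 16.1, a log2 fold change of 0.78, and *Grpel2* had 2.77 and 1.49 (0.85). The value of *Grpel1* hardly depends on the added constant, from 0.75 with 1 to 0.78 with 0.01. The J-domain factors and their partner, which control the ATP cycle of HSPA9, were lower or near the shift. *Dnajc19* had means of 0.838 and 1.11, a log2 fold change of -0.37, the lowest of the 41, and *Pam16*, its regulatory partner, 2.4 and 2.83 (-0.23). Summed with the near-identical copies described below, *Dnajc19* stood at -0.05 and *Pam16* at -0.03. *Dnajc15*, a paralog of *Dnajc19*, had means of 0.978 and 0.855 (0.17). *Hspa9* itself was listed at 6.79 in *Mfn1*-/- oocytes and 6.35 in WT (0.10).

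Among the peptidases, *Pitrm1*, which degrades the cleaved targeting sequences (chromosome 13, 6548149 to 6580515, plus strand), had a mean of 1.41 in *Mfn1*-/- oocytes and 0.857 in WT, a log2 fold change of 0.66. The subunits of the processing peptidase that cuts them off were nearer to the shift, the catalytic *Pmpcb* with 2.6 and 1.98 (0.38) and *Pmpca* with 0.913 and 0.729 (0.29). *Mipep*, which makes a second cut in some proteins, was lower, with means of 0.867 and 1.1 (-0.31). It overlaps the antisense gene *Mipepos*. *Timmdc1*, named for its likeness to TIM proteins although it acts in the assembly of complex I, was listed at 0.0456 and 0.0369, the lowest means of the set (0.09).

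**Figure D2:**
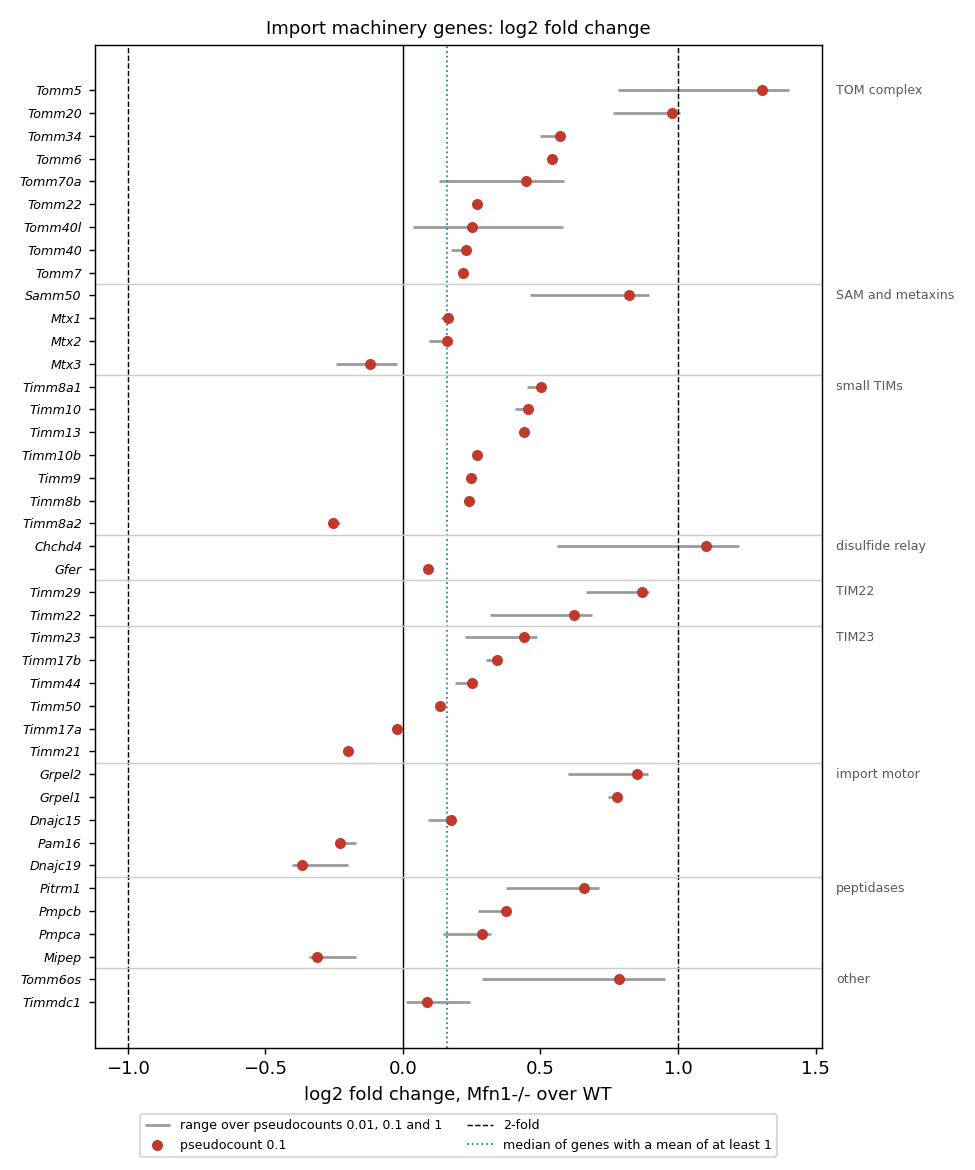
Log2 fold change of *Mfn1*-/- over WT for each of the 41 import genes by role, with red points for an added constant of 0.1 and gray bars for the range over constants of 0.01, 0.1 and 1. Dashed lines mark 2-fold and the dotted line the median of 0.16 of expressed genes, and at 0.1 the points of *Tomm5* and *Chchd4* lie past 2-fold.

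The libraries were made with kits that do not mark the strand, and 23 of the 41 genes overlap a gene on the opposite strand and 7 one on the same strand. Reads of such partners cannot be told apart where they overlap. *Tomm70a* (0.34 and 0.223) lies opposite *Nit2*, which was listed at 7.59 and 5.94, and *Dnajc19* (0.838 and 1.11) opposite *Fxr1*, at 3.03 and 3.26. *Tomm6os* had means of 0.582 and 0.296 (log2 fold change 0.78) and lies in part opposite *Tomm6*, for which the means were 68.1 and 46.8. *Tomm5*, *Chchd4* and *Grpel2* overlap no other gene of the annotation.

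Copies outside the member's own locus were searched for among GENCODE M21 transcripts, with at least 200 shared bases at 95% identity or more, a step chosen after the values were seen. Such copies were found for 10 of the 41 genes, 18 copies in all, of which 12 had a row in the table. For 7 members the copies together were listed above the member itself in both genotypes. *Tomm5* and *Chchd4* had no copy of that length. At the read length of 75 bases, 28 of the 41 genes shared sequence at 95% identity or more with some other gene, overlapping genes included. Reads of some members without a listed copy may thus also fit elsewhere.

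Copies far above the member were listed for *Pam16*, *Timm23*, *Dnajc19* and *Tomm20*. *Gm9803* on chromosome 10 (43524084 to 43524646), annotated as protein-coding, is the same as *Pam16* over 534 bases and was listed at 568 in *Mfn1*-/- oocytes and 581 in WT, so that *Pam16* made up 0.421% and 0.485% of the sum of both. For *Timm23* it was 0.462% and 0.382%, with the likewise protein-coding *Gm10273* on chromosome 10 (59395632 to 59396757), 1 difference over 1121 bases, listed at 210 and 182. *Dnajc19* was 1.95% and 2.49% of a sum in which *Dnajc19-ps* had 42.1 and 43.4. *Tomm20* was 4.07% and 5.36% of the sum with its copies. The own rows of these genes therefore rest on a small part of the values listed for their sequence.

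Adding the copies brought *Dnajc19*, *Pam16* and *Timm23* closer to 0 and moved *Timm17a*, *Timm8a1* and *Tomm22* away from it. Summed with its copy, *Dnajc19* went from a log2 fold change of -0.37 to -0.05, and *Pam16* from -0.23 to -0.03. *Timm23* went from 0.44 to 0.22. *Timm17a*, with *Gm7180* listed at 196 and 167, went from -0.02 to 0.19, which turns its direction. *Timm8a1* went from 0.50 to 0.52, with *Gm9797*, identical over 612 bases, at 39.3 and 27.4, and *Tomm22* from 0.27 to 0.30 with *Gm12906* at 5.11 and 2.86. Only 14.9% of the stretches of 75 bases are the same in *Timm17a* and *Gm7180*, and 2.08% in *Tomm22* and *Gm12906*. Most reads from these alignments thus differ between member and copy. Means of different genes can be added as reads only if they are not scaled by gene length, which the sources used here do not give.

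*Tomm20* and *Grpel2* were further apart with their copies than without. *Gm14494*, the copy of *Tomm20* printed above, was listed at 105 in *Mfn1*-/- oocytes and 39.2 in WT, a log2 fold change of 1.42 against 0.98 for *Tomm20* itself. The sum of *Tomm20* and its copies was 110 and 41.4, a log2 fold change of 1.40. *Gm5587*, a copy of *Grpel2* with 677 shared bases at 97.8% identity (chromosome 7, 25419153 to 25419826), was listed at 4.1 and 1.77, and the sum with *Grpel2* gave a log2 fold change of 1.05. Only 14.9% of the stretches of 75 bases in this alignment are the same in both. Most reads from it thus differ between *Grpel2* and *Gm5587*, and the sum adds values that such reads keep apart. With values summed in this way, 4 of the 41 members were past 2-fold, all higher in *Mfn1*-/- oocytes: *Tomm5*, *Chchd4*, *Tomm20* and *Grpel2*. Copies were added for the import genes alone, so the 4.87% of all genes past 2-fold was not computed in the same way and this count has no share of all genes to be read against.

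**Figure D3:**
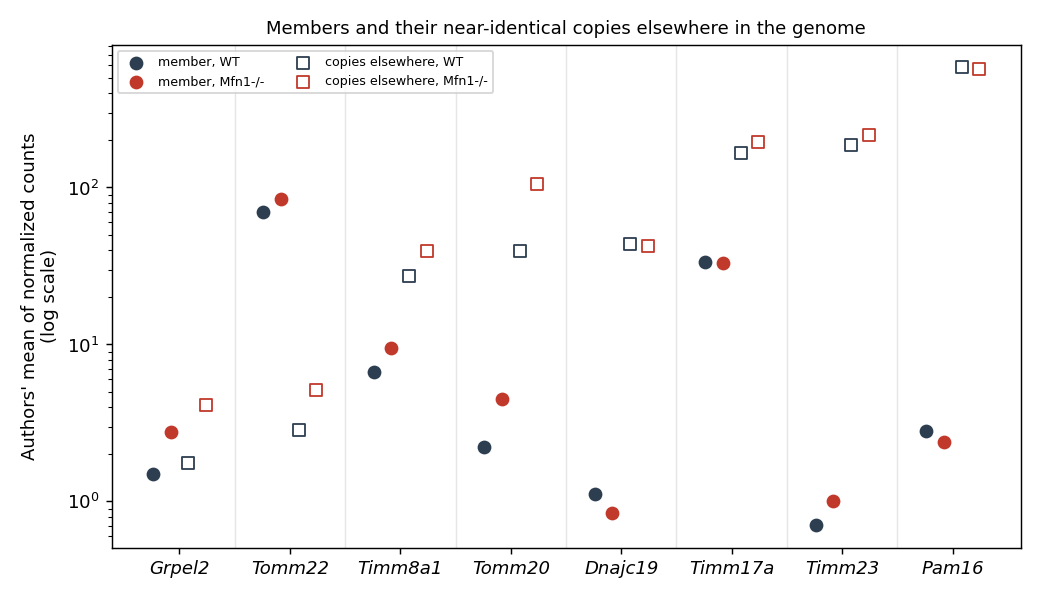
Authors' means of normalized counts on a log axis for the 8 members with a near-identical copy in the table, with filled circles for the member, open squares for its copies summed, dark for WT and red for *Mfn1*-/-. The copies of *Pam16*, *Timm23*, *Dnajc19* and *Tomm20* lie far above the members, and those of *Tomm22* below it.

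The own rows of paralogs within the set differed in sign in several families, some of them by little. The log2 fold change was 0.34 for *Timm17b* and -0.02 for *Timm17a*, 0.50 for *Timm8a1* and -0.25 for *Timm8a2*, and 0.17 for *Dnajc15* and -0.37 for *Dnajc19*. With copies added, *Timm17a* stood at 0.19, the same direction as *Timm17b*, and *Dnajc19* at -0.05. *Grpel1* and *Grpel2* were both higher, at 0.78 and 0.85. *Timm10* and *Timm10b* were at 0.45 and 0.27. These are differences of fold changes, and levels were not compared between genes because it is not known whether the counts are scaled by gene length.

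The fold changes within the set did not follow the level, the GC content or the length of the transcripts closely. Across the 41 genes Spearman's rho with the log2 fold change was -0.09 for the mean, 0.08 for GC content and 0.12 for length. Across the expressed genes it was 0.02 for the mean, and over the 6058 of them found in the annotation it was 0.29 for GC content and -0.17 for length. Genes are not independent replicates, and all share the same 7 libraries. The 10 members with a mean of at least 10 had a median log2 fold change of 0.26, the 19 between 1 and 10 of 0.38 and the 12 under 1 of 0.27, beside 0.19, 0.14 and 0.01 for all genes of these levels.

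Other genes of the pathway, from a list of 14 that the name rule does not take, stood lower as a group. Of the 14, 10 were higher and 4 lower in *Mfn1*-/- oocytes, none was past 2-fold and the median log2 fold change was 0.08, under the shift of expressed genes. Only *Oxa1l*, the insertase for proteins exported from the matrix, was past 1.5-fold, with means of 4.3 and 2.29 (0.88). *Aifm1*, which brings CHCHD4 to the inner membrane, had 1.21 and 0.812 (0.52), and *Romo1*, a subunit of TIM23, had 63.1 and 57.2 (0.14). *Immp1l*, a subunit of the inner membrane peptidase, was lower, with 1.47 and 1.82 (-0.29).

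The other gene groups of the same organelle or of protein synthesis are given beside the import genes as a description. Over the expressed members, the median log2 fold change was 0.20 in 70 mitochondrial ribosomal protein genes, 0.28 in 8 mitochondrial chaperone and protease genes and 0.27 in 84 cytosolic ribosomal protein genes, against 0.27 in 29 import genes. The number of members more than 1.5-fold higher was 7 of 70, 2 of 8 and 1 of 84 in the same order, against 7 of 29 import genes. The import genes and the cytosolic ribosomal protein genes thus had the same median and differed in spread, with an upper quartile of 0.57 in the first and 0.37 in the second.

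**Figure D4:**
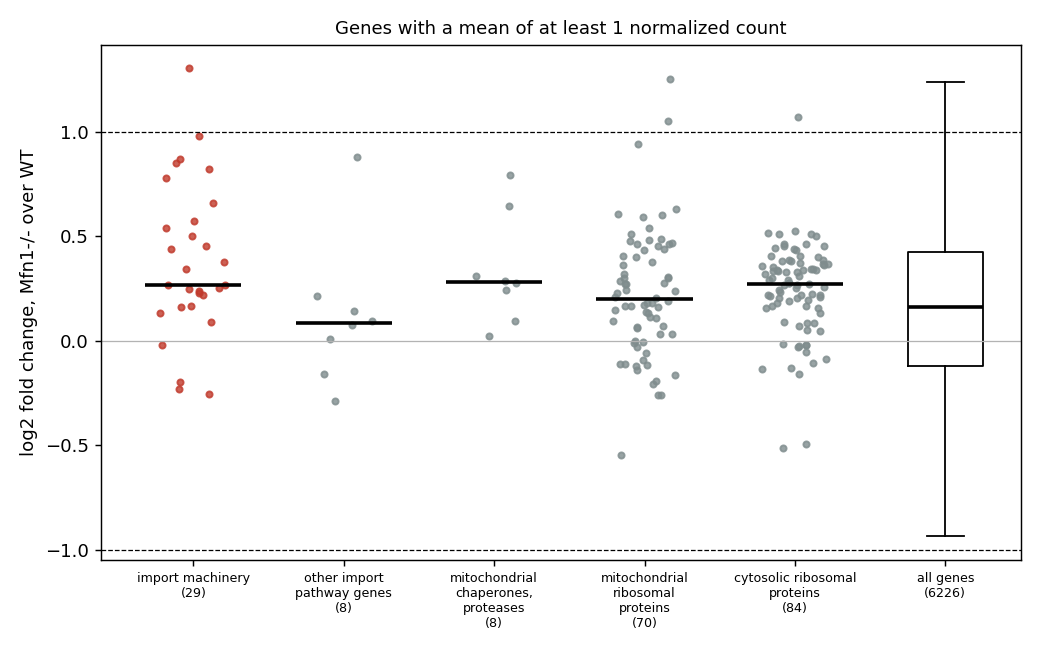
Log2 fold change of *Mfn1*-/- over WT for genes with a mean of at least 1, with 1 point per gene, a bar at the median and the number of genes in parentheses, beside a box from the lower to the upper quartile of all 6226 expressed genes with whiskers to the last gene within 1.5 box heights. The import genes have a median of 0.27 and reach from -0.25 to 1.31.

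The bases before the start sites of the 2 genes past 2-fold are shown with those of *Mtx2*, whose fold change lay on the general shift, from RefSeq on GRCm38.p6. Capitals mark letters of the ETS family motif described next.
*Tomm5* (chr4:45108114-45108363, minus strand): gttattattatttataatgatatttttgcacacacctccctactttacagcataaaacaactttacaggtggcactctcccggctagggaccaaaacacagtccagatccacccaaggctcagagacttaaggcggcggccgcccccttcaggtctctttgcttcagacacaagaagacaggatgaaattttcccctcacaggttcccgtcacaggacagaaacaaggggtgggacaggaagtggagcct
*Chchd4* (chr6:91473424-91473673, minus strand): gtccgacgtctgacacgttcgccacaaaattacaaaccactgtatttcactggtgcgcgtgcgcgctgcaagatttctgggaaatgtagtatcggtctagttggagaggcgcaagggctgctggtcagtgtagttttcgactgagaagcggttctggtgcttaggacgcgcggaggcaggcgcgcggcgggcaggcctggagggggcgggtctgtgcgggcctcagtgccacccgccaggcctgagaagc
*Mtx2* (chr2:74825562-74825811, plus strand): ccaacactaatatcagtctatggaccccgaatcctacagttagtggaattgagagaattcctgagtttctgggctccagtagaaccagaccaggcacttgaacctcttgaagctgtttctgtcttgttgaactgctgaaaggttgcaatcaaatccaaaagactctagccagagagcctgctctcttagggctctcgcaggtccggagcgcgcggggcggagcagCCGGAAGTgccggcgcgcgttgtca
A set of 3 motifs was searched on both strands from 250 bases before to 50 after the start in the 37 members with a RefSeq entry. The letters CCGGAAGT, bound by GABP and other ETS factors, stood in 10 of the 37 (27.0%), against 12.1% of expressed genes and 4.31% of all genes with an entry. The NRF1 letters GCGCATGC stood in 2 (5.41%), *Grpel1* and *Timm13*, against 6.99% of expressed and 3.05% of all genes. The letters TGATGNAA of ATF4 and C/EBP dimers stood in none, against 2.94% and 4.51%. The 10 genes with the ETS letters had a median log2 fold change of 0.32 and the 27 without of 0.29, and *Tomm5*, *Chchd4* and *Tomm20* hold none of the 3 motifs in this window. These matches describe letters, and no binding was measured.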

How the data were processed

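RNA from pools of 5 secondary follicle-enclosed oocytes was amplified with Smart-Seq2 and sequenced by the authors, in 3 *Mfn1*-/- and 4 WT libraries, grouped by their titles. The methods of the study count fewer samples than the titles do, and the titles were followed here. Per the methods and labels, reads were trimmed with Cutadapt, filtered with the FASTX-Toolkit, aligned with STAR to GRCm38/mm10 and counted on genes. Versions, the annotation and the normalization are not given in the sources used here. The deposited signal, made by the authors, gives for each genotype the average of normalized counts, with a total over libraries. In all 22877 rows that total was, within 1%, the average of *Mfn1*-/- taken 3 times and that of WT taken 4 times. Columns of the authors' own comparison (p-value, FDR, ratio and fold change) were not used, and there were 0 columns of single libraries, so no test, error, depth or interval can be given.

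Log2 fold changes were computed from the genotype means with a pseudocount of 0.1 and called past 2-fold, the fold threshold of the study. Expressed genes had a mean of at least 1. Members and gene lists were chosen with earlier results of these data known. The rule for named genes took members past 2-fold and those nearest to it, the member with the highest mean in each role, paralog pairs, members with means under 0.1 and *Mfn1*. Values of the other members, of overlapping and other pathway genes and of the copies are given beyond that rule, with their values already known. Names from *Rps6k* and *Rps19bp* were left out of the ribosomal protein genes. Gene positions came from GENCODE M21, where all 41 names were found, and GC content and length from the longest transcript. Copies were found with blastn 2.17.0, with the longest alignment kept for each pair. The code was tested on simulated means without noise, which checks how calls are computed and not how reliable they are. The work was done in Python 3.11.15 with matplotlib 3.10.9, scipy 1.17.1, pandas 2.3.3 and numpy 2.4.6. Alternatives were pseudocounts of 0.01, 1 and none, centring, a minimum mean and a 1.5-fold threshold, and, chosen after the data were seen, centring on protein-coding genes or within 20 GC bins, leaving out *Tomm6os*, and adding the copies.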

Additional observations from a re-analysis of the deposited data

How the results depend on the processing

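No paired analysis was possible because the table holds 1 mean per genotype and no values of single libraries, and for the same reason no library could be left out. None of the alternatives brought a member more than 2-fold lower in *Mfn1*-/- oocytes, and the median of the members stayed above 0 in each. The count of members more than 2-fold higher, 2 as reported, was 0 with a pseudocount of 1, where *Tomm5* stood at 0.78 and *Chchd4* at 0.56. It was 3 with a pseudocount of 0.01 or none, with *Tomm20* added at 1.01. It was 1, *Tomm5*, when the median of expressed genes, of expressed protein-coding genes or of the GC bin was subtracted, with *Chchd4* at 0.94, 0.94 and 0.96 and the median of the members at 0.11, 0.11 and 0.13. It was also 1 among members with a mean of at least 1, as *Chchd4* has a lower mean, 4 with the copies added and 10 at a threshold of 1.5. The number of members above 0 was 31 after either centring, 29 after the GC step and 35 with the copies. Without *Tomm6os* the count past 2-fold stayed at 2. Replicate spread and depth are unknown here, so how far any of these values exceeds the variation between libraries was not tested.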
